A study of Mus musculus with 18 samples.

Results

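The effect of glutamine was compared between 2 tissues of HFD mice, gene by gene, as the change in visceral adipose libraries minus the change in bone marrow libraries. The comparison covered 951 of the 46983 gene names in the joined count tables. These genes were selected on their measured counts: each had 100 or more counts in at least 7 of the 9 libraries of each tissue. That level was reached by 11093 genes in adipose tissue and by 979 in marrow, so the marrow libraries set the choice, and 257 genes reached it in all 18 libraries. The rule admits at most 2 libraries under 100 counts per tissue and so leaves out genes that were absent from a whole arm.

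The 18 libraries were 3′ mRNA-seq libraries (QuantSeq, which reads the end of each transcript) from male C57BL/6J mice. Both arms carried the label HFD, the usual abbreviation of a high-fat diet. The 4 control libraries of each tissue were untreated, and the 5 others of each tissue came from the arm labelled Glutamine. No allele is named, and the labels give neither the dose, route and duration of glutamine nor the age of the mice. The sample titles call the marrow material mBMSC and the adipose material mAT-MSC VAT, abbreviations that the labels do not spell out. Each library carries a pair of numbers, such as 1+3, whose meaning the labels do not give. Nothing says that libraries came from separate animals or cultures, so p-values measure the spread between these libraries, which may be technical. In the fit of all 18 libraries that spread is pooled over both tissues. Values below are in CPM, a gene's count scaled to the library's total. They are in the order 1+3, 5+11, 14+17 and 23+28 for HFD and 4+6, 10+12, 13+15, 18+20 and 25+27 for HFD with glutamine. Fitted effects also apply TMM factors, a further scaling of each library, and so can depart from the ratio of the CPM values. These factors ran from 0.322 to 0.575 in marrow HFD and from 0.405 to 0.941 in marrow with glutamine. In adipose tissue they ran from 1.54 to 2.21 in HFD and from 1.82 to 2.13 with glutamine. The third glutamine column of the marrow table carries a number pair that matches no sample title and is known by its arm only. The number 13 of that pair is in the glutamine title 13+15 and the number 17 in the HFD title 14+17. The arm is taken from the column's prefix. That column is called the unnumbered marrow library.

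Glutamine is the most abundant free amino acid of the blood. Cells use it as a donor of nitrogen for nucleotides and other amino acids, as fuel for the citric acid cycle and as a precursor of glutamate and glutathione. Stromal cells of the bone marrow can form bone-making osteoblasts and fat cells and hold blood stem cells in place, and stromal cells of visceral fat include the progenitors of new fat cells. Both kinds lay down collagen and other extracellular matrix.

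Library totals ran from 35871168 to 59529238 counts in adipose tissue and from 13970788 to 37984603 in marrow. In adipose tissue 12313.5 ± 858.6 genes of the HFD libraries (SD, n = 4) and 13133.6 ± 784.7 of the glutamine libraries (SD, n = 5) had 100 or more counts, against 3060.8 ± 1246.5 (SD, n = 4) and 3897.2 ± 2055.6 (SD, n = 5) in marrow. The arms did not differ in this number beyond the spread between libraries in either tissue (exact permutation test over 126 splits, two-sided, p = 0.198 in adipose and p = 0.571 in marrow). Of 21 adipose progenitor and stromal surface genes, 20 passed the level of 100 counts in 7 libraries in adipose tissue and 8 in marrow. Marrow libraries also held RNA of blood cells: 8 of 14 neutrophil genes passed there, with a summed level of 4641 to 55712 CPM in HFD and 2968 to 26494 CPM with glutamine, against 59.5 to 316 CPM over the adipose libraries. Of 12 erythroid genes 6 passed in each tissue. Endothelial genes passed in adipose tissue only, 12 of 12 against 0 of 12 in marrow, and of 20 macrophage genes 19 passed in adipose tissue and 1 in marrow. Of the osteoblast and bone matrix genes only the osteocyte product Sost was at 0 in every marrow library. Of the T and NK cell genes only Cd8a was. The T and NK cell genes summed to 0.403 to 0.763 CPM in marrow HFD and to 0.474 to 80.5 CPM in marrow with glutamine. In bulk libraries fewer cells of a type and less RNA per cell cannot be told apart.

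Of the 951 genes, 3 had a glutamine effect that differed between the tissues at an adjusted p under 0.05. Trip12 and Ccnd2 had the more positive effect in marrow and Pfdn5 the more positive effect in adipose tissue. The fit was edgeR's quasi-likelihood test on all 15203 genes that passed its count filter, with Benjamini-Hochberg adjustment over all of them. In that whole set 11.9% of genes were called. Here 1 gene was called with a positive difference, where 4.05% of all genes were, and 2 with a negative one, where 7.87% were. An unadjusted p under 0.05 was found for 21 of the 951 genes, against 27.5% of all genes tested. The share among the 951 was thus below the background in each of these counts, and the rule itself takes out the genes that are present in 1 arm only, so nothing is read from that gap. For the effect in adipose tissue itself 0 of the 951 genes were called, and 0% of all genes were. For that in marrow 31 of the 951 were called, against 25.8% of all genes. Of these, 8 rose with glutamine, against 17.0% of all genes, and 23 fell, against 8.79%. With the 9 marrow libraries fitted on their own, 0 of the 951 passed in edgeR's test, against 0.132% of all genes in that fit, and 28 had an unadjusted p under 0.05, against 18.7%. With the 9 adipose libraries alone 0 passed, against 0% of all genes, and 46 had an unadjusted p under 0.05, against 4.13%. DESeq2 on all 18 libraries gave 943 of the 951 an adjusted p and called 12 for the difference, against 9.20% of all genes with one, 0 in adipose tissue, against 0.286%, and 52 in marrow, against 20.0%.

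Fitted glutamine effects were smaller in adipose tissue than in marrow. In adipose tissue the median absolute effect over the 951 genes was 0.27 (log2), and 23 genes had an effect above 1 in size. In marrow the median absolute effect was 0.83 and 399 genes were above 1. With its sign the median effect was -0.25 in adipose tissue, where 151 effects were positive, and -0.39 in marrow, where 357 were. The marrow effect was the larger in size for 774 genes, or 81.4%. The effects had opposite signs for 380 genes, or 40.0%. Across the 951 genes, which are not independent replicates and share their libraries, the adipose and the marrow effect had a Pearson r of 0.038 and a Spearman rho of 0.057. The difference between tissues was nearly the marrow effect with its sign turned: it ranged from -2.02 to 2.25 between the 5th and 95th percentiles, with a median of 0.14, and 513 of the 951 were positive. Over all genes tested the median difference was -0.22 and the median absolute difference 2.26, against 0.84 among the 951.

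**Figure D1:**
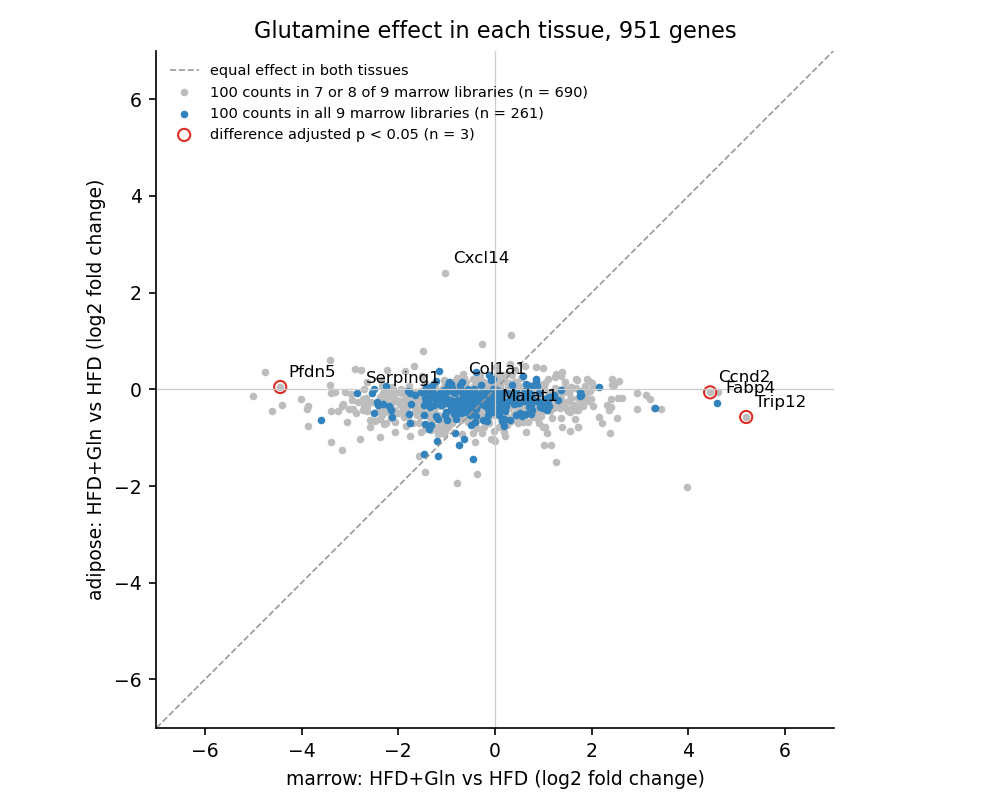
Each point is 1 of the 951 genes, with the glutamine effect in marrow on the horizontal axis and in adipose tissue on the vertical axis, both as log2 fold change of HFD with glutamine against HFD. Points lie in a flat band, with 399 genes beyond 1 in size along the marrow axis and 23 along the adipose axis, and the 3 circled genes are those whose difference passed the test.

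The spread between libraries of the same arm was also larger in marrow. The SD of log2 CPM, here scaled by TMM factors, was taken within each arm. Its median over the 951 genes was 0.39 in adipose HFD and 0.30 in adipose with glutamine. It was 3.04 in marrow HFD and 2.29 in marrow with glutamine. All 951 genes had counts above 0 in every library. Values under 100 counts made up 0.245% of their adipose values and 12.8% of their marrow values. Of the 951 genes, 945 to 951 reached 100 counts in any adipose library, 627 to 922 in a marrow HFD library and 678 to 949 in a marrow glutamine library. The lowest were HFD 23+28 with 627 and the unnumbered library with 678. The fitted dispersion had a median of 0.0712 in adipose libraries alone and 2.89 in marrow libraries alone. It was 1.22 in the joint fit, which holds 1 spread for both tissues. Standard errors and p-values of the joint fit thus rest on a spread that is, in the median, above that of adipose and below that of marrow libraries.

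**Figure D2:**
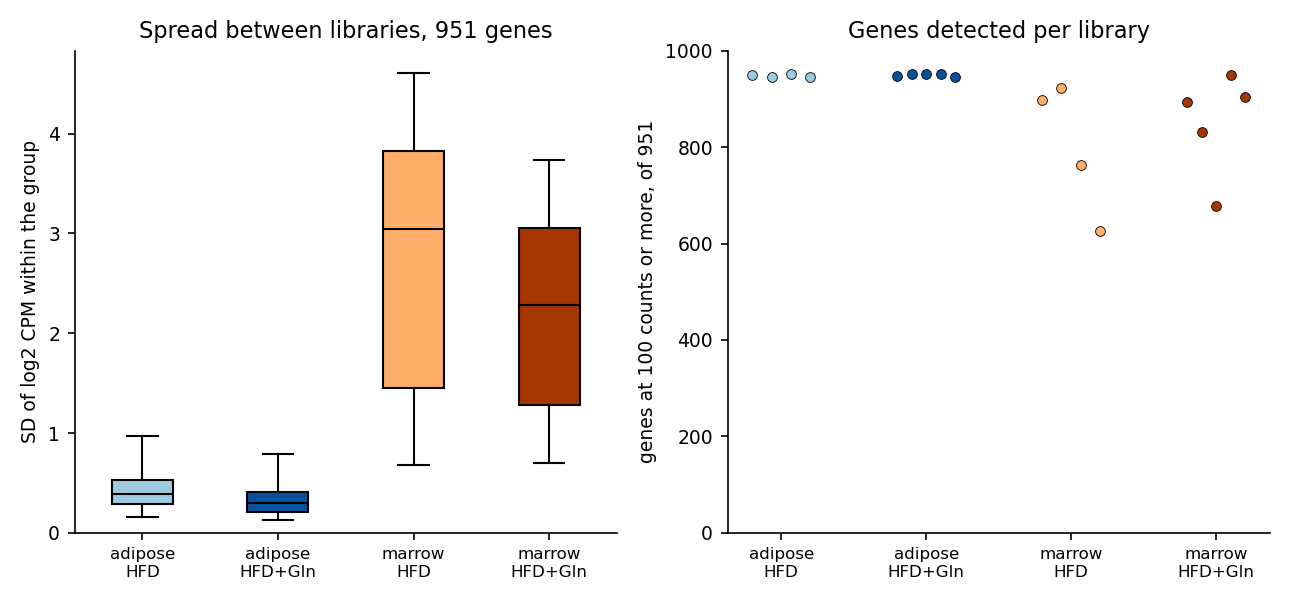
The left panel gives, per group, the within-group SD of TMM-scaled log2 CPM over the 951 genes. The line is at the median, the box runs from the lower to the upper quartile and whiskers are at the 5th and 95th percentiles. The right panel gives the number of these genes at 100 counts or more in each library. Marrow medians were 3.04 and 2.29 against 0.39 and 0.30 in adipose tissue, and marrow libraries reached as low as 627 genes.

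The 95% interval of the difference reached a median of 3.15 (log2) to either side, and 0 of the 951 intervals lay wholly within 1 of zero, 24 within 2 and 159 within 3. For most genes a difference of several fold in linear terms was not detectable with these libraries. The median standard error fell from 1.73 for the 405 genes seen at 100 counts in 7 marrow libraries to 1.45 for the 285 seen in 8 and 1.13 for the 261 seen in 9. The median absolute difference over the same steps was 0.99, 0.86 and 0.57. Just outside the rule, the 551 genes at that level in 6 marrow libraries had a median absolute difference of 1.14 and the 810 in 5 libraries one of 1.53.

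Trip12 encodes a ubiquitin ligase and lies on chromosome 1 from 84721189 to 84840516 (GRCm38, GENCODE M21). The adipose values were 276, 280.1, 256 and 235 CPM in HFD and 202, 240.4, 178, 227 and 188 CPM with glutamine. Those of marrow were 48.0, 4.17, 1.64 and 5.86 CPM in HFD and 283, 1.79, 1653, 274 and 187 CPM with glutamine. The adipose arms overlapped and differed little in level, and in marrow 4 of the 5 glutamine libraries lay above every HFD library while 10+12 lay among them. The glutamine effect was -0.57 ± 1.15 (log2 ± SE) in adipose tissue and 5.19 ± 1.44 in marrow, a difference of -5.77 ± 1.76 (edgeR adjusted p = 0.0438). Without the unnumbered library, which was highest at 1653 CPM, the difference was -3.67 and the adjusted p 0.133, and over the removal of each single library the adjusted p ran from 0.0345 up to that value.

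Ccnd2, cyclin D2, drives entry into the cell cycle and lies on chromosome 6 from 127125162 to 127152193. Adipose HFD libraries held 719, 891, 789 and 501 CPM and adipose glutamine libraries 762, 648, 1163, 805 and 678 CPM. Marrow HFD libraries held 4.24, 34.2, 3.57 and 5.31 CPM and marrow glutamine libraries 622, 6.73, 268, 181 and 449 CPM. Again 4 of 5 glutamine libraries of marrow stood above all HFD libraries, 10+12 stood among them, and the adipose arms overlapped. The effect was -0.06 ± 0.97 in adipose tissue and 4.45 ± 1.16 in marrow, and the difference -4.51 ± 1.44 (edgeR adjusted p = 0.0477). Over the removal of each single library its difference stayed between -5.55 and -4.11 while the adjusted p ran from 0.0346 to 0.0892.

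Pfdn5 encodes a subunit of prefoldin, which hands newly made actin and tubulin to the chaperonin, and lies on chromosome 15 from 102326116 to 102331873. In adipose tissue Pfdn5 had 219, 226, 277 and 160.1 CPM in the HFD libraries and 226, 265, 277, 314 and 235 CPM with glutamine. In marrow it had 527, 115, 329 and 218 CPM in HFD and 24.2, 2.51, 1.66, 60.4 and 20.4 CPM with glutamine. All marrow glutamine libraries lay below all marrow HFD libraries, and the adipose arms overlapped. The effect was 0.05 ± 0.93 in adipose tissue and -4.44 ± 1.02 in marrow, and the difference 4.49 ± 1.37 (edgeR adjusted p = 0.044). Without any single library it stayed between 4.41 and 5.06, with adjusted p from 0.0351 to 0.0807. The exons of Pfdn5 overlap those of Myg1 on the same strand, so its counts depend on how shared reads were assigned.

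**Figure D3:**
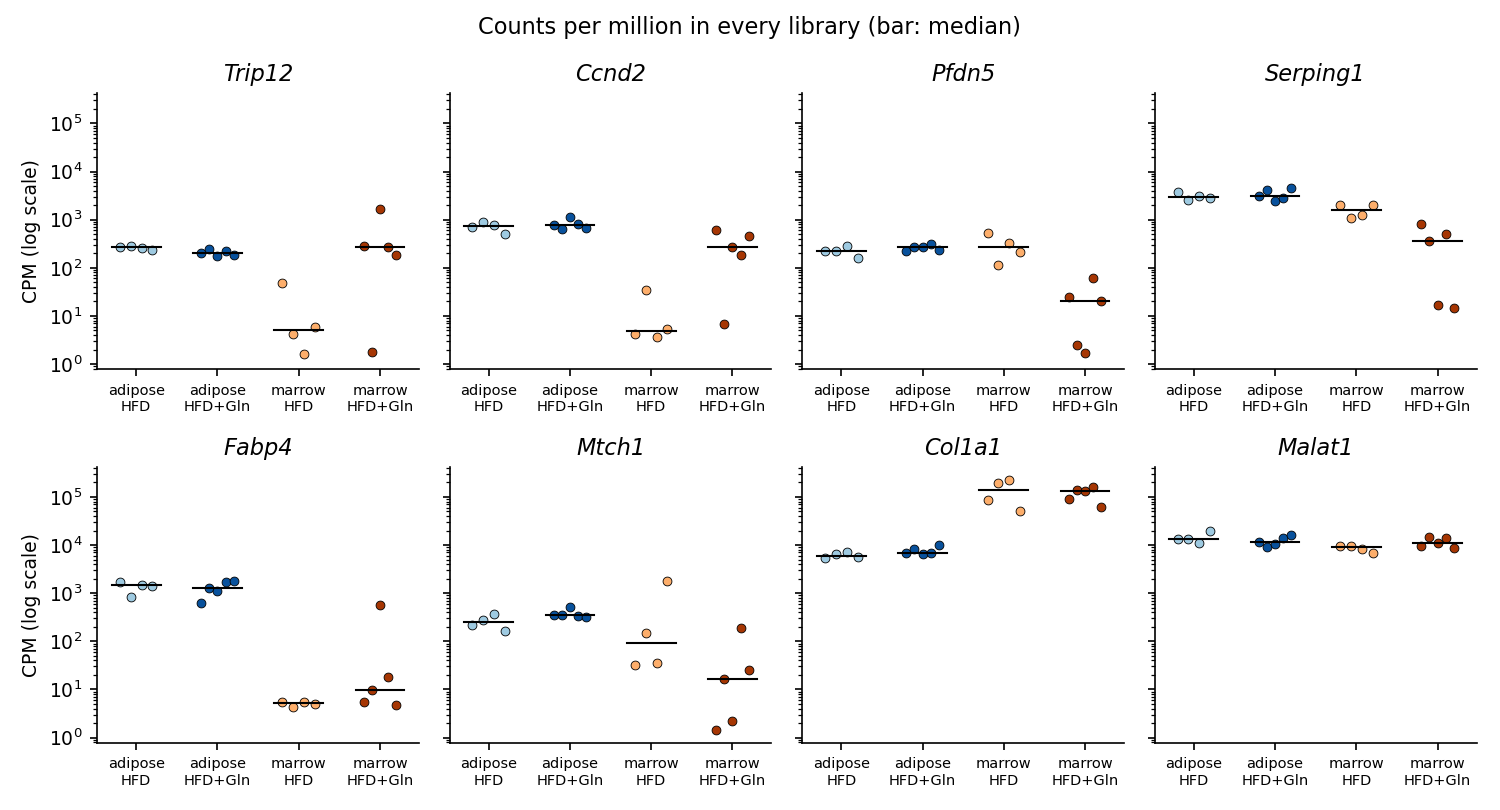
CPM on a log axis in each of the 18 libraries for 8 genes, with a bar at the group median. In Trip12 and Ccnd2 a single marrow glutamine library (1.79 and 6.73 CPM) sits with the HFD libraries, in Pfdn5 and Serping1 the marrow arms do not overlap, in Fabp4 1 marrow library stands apart at 559 CPM, and Col1a1 and Malat1 overlap in both tissues.

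Beyond these 3, the genes with the smallest unadjusted p were described by the same values, and none of them passed at the adjusted level. Among those with a positive difference was Serping1, the C1 inhibitor that restrains the complement and contact systems, on chromosome 2 from 84765387 to 84775444. It was among the 257 genes at 100 counts in every library. The adipose values were 3770.5, 2504, 3165 and 2879.5 CPM in HFD and 3109, 4080.4, 2479, 2879 and 4516 CPM with glutamine. Those of marrow were 1987, 1103, 1261 and 1976 CPM in HFD and 799.6, 358, 17.2, 502 and 14.7 CPM with glutamine. All marrow glutamine libraries were below all HFD libraries and the adipose arms overlapped. The marrow effect was -2.85 ± 0.79 (edgeR adjusted p = 0.0153), and the difference was 2.77 ± 1.10 (adjusted p = 0.0918).

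Fam111a, a protease of DNA replication forks, had 149, 361, 244 and 406 CPM in marrow HFD libraries and 7.23, 80.5, 0.829, 64.5 and 14.0 CPM in those with glutamine. Adipose tissue gave 101, 66.8, 118 and 138 CPM in HFD and 102, 95.4, 119, 125 and 98.3 CPM with glutamine. The marrow arms did not overlap, and the difference was 3.81 ± 1.43 (edgeR adjusted p = 0.0752). Arf6, a small GTPase of membrane traffic at the cell surface, had 138, 164, 412 and 1207 CPM in marrow HFD libraries and 120.1, 114, 1.48, 59.6 and 1.63 CPM in those with glutamine. Its adipose values were 336, 200.4, 223 and 268 CPM in HFD and 217, 248, 285, 209 and 227 CPM with glutamine. These arms did not overlap either, with 138 CPM the lowest HFD value and 120.1 CPM the highest with glutamine, and the difference was 3.52 ± 1.54 (adjusted p = 0.133). Adipose arms overlapped for both genes.

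Mtch1, a protein of the mitochondrial outer membrane, had 32.5, 147, 35.7 and 1771 CPM in marrow HFD libraries and 1.42, 16.7, 2.19, 188 and 25.2 CPM in those with glutamine. Adipose tissue gave 219, 275, 363 and 164 CPM in HFD and 355, 351, 511, 339.9 and 316 CPM with glutamine. The marrow arms overlapped, and HFD 23+28 stood at 1771 CPM, above 188 CPM in the next marrow library. The difference was 5.11 ± 1.78 (edgeR adjusted p = 0.0574) and 1.99 without that library. Slc43a3, a purine nucleobase transporter, had 264, 6.30, 2.14 and 966 CPM in marrow HFD libraries and 4.91, 71.0, 2.07, 18.4 and 24.8 CPM in those with glutamine. Its adipose values were 589.7, 369, 338 and 565 CPM in HFD and 334, 525, 249, 485 and 450.4 CPM with glutamine. Both arms spanned low and high libraries. Its difference was 4.16 ± 1.79 (adjusted p = 0.124) and 1.95 without HFD 23+28. The other 2 of the 8 leading genes in this direction were Isyna1, which makes inositol phosphate, at 4.01 ± 1.78, and Rpn1, a subunit of the enzyme that attaches sugar chains to new proteins in the endoplasmic reticulum (ER), at 2.81 ± 1.27 (adjusted p = 0.139 and 0.146).

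On the negative side Smarcc1, a core subunit of the SWI/SNF chromatin remodeller, had 7.16, 45.6, 0.714 and 0.695 CPM in marrow HFD libraries and 172, 223, 798, 169 and 317 CPM in those with glutamine. Adipose tissue gave 76.4, 99.8, 119.7 and 90.6 CPM in HFD and 118, 75.6, 151, 87.4 and 104 CPM with glutamine. Every marrow glutamine library was above every HFD library, and the adipose arms overlapped. The difference was -4.66 ± 1.61 (edgeR adjusted p = 0.0553). Rab1a, a GTPase that moves vesicles from the ER to the Golgi, had 37.1, 37.1, 0.500 and 7.30 CPM in marrow HFD libraries and 184, 188, 396, 205 and 242 CPM in those with glutamine. Its adipose values were 258, 167, 165 and 153 CPM in HFD and 138, 194, 116, 212 and 163 CPM with glutamine. Here too the marrow arms did not overlap, and the difference was -3.85 ± 1.44 (adjusted p = 0.0739).

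Fabp4 carries fatty acids in fat cells and lies on chromosome 3 from 10204088 to 10208576. Adipose HFD libraries held 1703, 845, 1504 and 1411 CPM and adipose glutamine libraries 627, 1285, 1105, 1735 and 1806 CPM. Marrow HFD libraries held 5.58, 4.26, 5.46 and 5.02 CPM and marrow glutamine libraries 5.38, 9.73, 559, 17.9 and 4.68 CPM. In marrow 1 library, the unnumbered one, stood apart at 559 CPM, and the other 8 lay between 4.26 and 17.9 CPM. The difference was -4.88 ± 1.77 (edgeR adjusted p = 0.0657) with all libraries and -0.05 without that one. Adipoq, the fat cell hormone adiponectin, and Lpl, the lipase that frees fatty acids from blood lipids, had differences of 0.15 ± 1.49 and 1.13 ± 1.36. Of the 4 adipocyte genes measured at this level, these 2 were positive and 2, Fabp4 among them, were negative, with a median of -0.44. The 16 adipocyte genes summed to 1384 to 3844 CPM in marrow HFD libraries and 734 to 3293 CPM in marrow glutamine libraries, overlapping ranges.

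The others of this side were Nup210, a nuclear pore protein, at -5.99 ± 2.17 (edgeR adjusted p = 0.0656), Hspa4, a chaperone of the HSP110 family, at -3.67 ± 1.55 (0.117), and Gadd45g, a stress-induced regulator of growth arrest, at -3.25 ± 1.39 (0.121). Nup210 was the weakest of them in adipose tissue, at 0.215 to 46.9 CPM. Marrow HFD libraries held a wide range for Hspa4, with 205, 29.9, 1.86 and 1.44 CPM, and for Gadd45g, with 186, 62.7, 3.64 and 3.48 CPM. In both the HFD values overlapped the glutamine values.

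Arms that did not overlap were few in either tissue. In marrow 5 of the 951 genes had every glutamine library above every HFD library in CPM, against 2.15% of all genes tested. They were Smarcc1, Rab1a, the proteoglycan Fmod, the superoxide dismutase Sod1 and Wdr43, a factor of ribosome assembly. Another 6 had every glutamine library below, against 0.276% of all genes: Pfdn5, Fam111a, Serping1, Arf6, the transcription factor Nfix and Spop, an adaptor of a ubiquitin ligase. In adipose tissue 4 genes were higher without overlap, against 1.05% of all genes, namely Nucb1, Fam132a, Ubr1 and Nisch. Another 8 were lower, against 0.612%: Rps29, Eid1, Rsl1d1, BC005537, Atp5c1, Rpl11, Vps35 and Ywhaz. No gene was on the list of both tissues. Scaling by TMM factors changed these counts to 3 higher and 10 lower in marrow, against 1.26% and 0.691% of all genes, and to 1 higher and 13 lower in adipose tissue, against 0.684% and 0.980%. The genes outside the naming rule in this paragraph were picked after their values were seen.

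For Rps29, a protein of the small ribosomal subunit, the fitted effect was negative in both tissues. In adipose tissue Rps29 had 1437, 1270.4, 1396 and 1451 CPM in the HFD libraries and 1109, 1135, 1082, 1076 and 1030.1 CPM with glutamine. In marrow it had 754, 1803, 1640.1 and 2891 CPM in HFD and 154, 199, 612, 662 and 1375 CPM with glutamine. The adipose arms did not overlap and the marrow arms did. The effect was -0.58 ± 0.63 in adipose tissue and -2.13 ± 0.64 in marrow (edgeR adjusted p = 0.0208 for marrow), and the difference 1.55 ± 0.90 did not pass (adjusted p = 0.305). Fam132a, a secreted hormone-like protein of fat, was the gene with the largest effect among the 4 that were higher in adipose tissue, at 7.83 to 18.3 CPM in HFD and 23.0 to 52.1 CPM with glutamine. Its adipose effect was 0.93 (log2), its marrow effect -0.26 and its difference 1.19.

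The largest adipose effect among the 951 was that of Cxcl14, a chemokine of stromal cells. The adipose values were 29.0, 6.05, 19.8 and 12.5 CPM in HFD and 19.8, 12.7, 28.4, 26.9 and 431 CPM with glutamine. Those of marrow were 913, 149, 13.0 and 1.29 CPM in HFD and 250.2, 54.1, 124, 297 and 1.69 CPM with glutamine. In adipose tissue 1 library, 25+27, stood at 431 CPM and the other 8 between 6.05 and 29.0 CPM, and the marrow arms overlapped. The effect was 2.40 ± 1.53 in adipose tissue and -1.04 ± 1.41 in marrow. The difference was 3.44 ± 2.06 (edgeR adjusted p = 0.323) and 1.27 without that library.

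Collagen genes showed no call among their 10 genes measured at this level, with 7 positive and 3 negative differences and a median of 0.29, beside 0.14 over the 951. Col1a1, the chief chain of bone collagen and the most abundant gene of every marrow library, had one of the smaller standard errors. Adipose HFD libraries held 5279, 6455, 7305 and 5536 CPM and adipose glutamine libraries 6960.0, 8144, 6362, 6873 and 10017 CPM. Marrow HFD libraries held 87377, 197529, 229651 and 50299 CPM and marrow glutamine libraries 90731, 137741, 133601, 158097 and 61773 CPM. The arms overlapped in both tissues. Its difference was 0.83 ± 0.44, with a 95% interval from -0.09 to 1.74 (edgeR adjusted p = 0.246). It was 0.42 without marrow HFD 14+17 and 1.43 without the unnumbered library, where it passed (adjusted p = 0.0393). Each tissue was also fitted alone, and the 2 estimates were compared by a normal approximation. It ignores how few libraries there were, so its p-values can be too small. Col1a1 had an adjusted p of 0.047 there, the only one of the 951 called in that setting. Col1a2, its partner chain, was at 0.44 ± 0.51, Col3a1 of soft tissue at -0.72 ± 0.94, and Col6a2 of the pericellular network at -2.10 ± 1.58. Without the unnumbered library the sign of the Col3a1 difference turned, to 0.37.

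Of the 15 matrix glycoproteins and proteoglycans 8 differences were positive and 7 negative, with a median of 0.13 and no call. Sparc, a calcium-binding matrix protein of bone, was at 0.26 ± 0.52 with an interval from -0.81 to 1.33. Dcn, the collagen-binding proteoglycan decorin, was at 0.47 ± 0.52, with an interval from -0.61 to 1.54. Fmod, fibromodulin, stood apart. In adipose tissue Fmod had 102, 70.2, 137 and 123 CPM in the HFD libraries and 111, 225, 122, 110.2 and 17.7 CPM with glutamine. In marrow it had 34.9, 0.518, 62.2 and 0.546 CPM in HFD and 452, 129, 207, 195 and 204 CPM with glutamine. Its marrow arms did not overlap and its adipose arms did, and the difference was -3.02 ± 1.70 (edgeR adjusted p = 0.279). Among 13 matrix proteases and inhibitors the median difference was -0.67, with 6 positive and 7 negative. Besides Serping1 the leading one was Ctsd, the lysosomal protease cathepsin D, at -1.90 ± 1.15.

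The bone list held 6 genes at this level. Ibsp, bone sialoprotein, was at -0.27 ± 0.79, Spp1, osteopontin, at -0.24 ± 1.35, and Bglap, the osteoblast hormone osteocalcin, at 0.49 ± 1.32. None of the 6 passed, and their median was 0.35. Cxcl12, the chemokine with which marrow stroma holds blood stem cells, had 8921, 2940.2, 2813 and 2200.4 CPM in marrow HFD libraries and 4022, 4212, 3673, 4339.6 and 1464 CPM with glutamine. These ranges overlapped, and the difference was 0.34 ± 0.65 with an interval from -1.02 to 1.69.

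The largest list was that of the cytosolic ribosomal proteins, 54 genes of 79. Their differences were balanced, 29 positive and 25 negative, with a median of 0.09 and a range from -1.61 to 2.03, and no gene passed. The median effect was -0.35 in adipose tissue and -0.36 in marrow, beside -0.25 and -0.39 over the 951. Rps25 was the leading one on the negative side, at -1.39 ± 0.82. Genes of this family have many near-identical processed copies, and 61 of the 951 genes are themselves predicted models or pseudogenes, so how reads were split between copies can move these values. Of 16 translation factors 10 were positive and 6 negative, with a median of 0.16. Eef1a1, the factor that brings transfer RNA to the ribosome, was at 0.03 ± 1.25.

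Among the 951, genes of glutamine handling gave no call. Over all genes tested 3 of the 29 in this list were called, where 11.9% of all genes were. Slc38a2, a transporter that takes up glutamine and other neutral amino acids, had 618, 813, 499 and 456 CPM in adipose HFD libraries and 629, 590.3, 562, 518 and 715 CPM with glutamine. In marrow it had 692, 1236, 281 and 595 and 226, 1228, 4.26, 278 and 327 CPM. The arms overlapped in both tissues, and the difference was 1.13 ± 1.21 with an interval from -1.38 to 3.63. Gmps, which uses glutamine to make GMP, was at -0.75 ± 1.78. Glutamine synthetase (Glul) was not among the 951. Of the amino-acid stress response 4 of 21 genes were, and 4 of the 21 were called over all genes tested, beside the same 11.9%. The 4 at this level were Atf4, its transcription factor, at 0.21 ± 1.04 and the tRNA ligases Eprs, Aars and Gars at -1.04 ± 1.58, -0.82 ± 1.58 and -0.35 ± 1.72. None of those named here passed.

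Energy genes among the 951 gave no call either. Over all genes tested, 4 of 46 nuclear respiratory chain genes were called. So was 1 of 26 genes of glycolysis and the citric acid cycle, where 11.9% of all genes were. Of 7 genes encoded by the mitochondrial genome 5 were negative and 2 positive, with a median of -0.82, with the ribosomal RNAs mt-Rnr2 at -1.21 ± 1.10 and mt-Rnr1 at -1.14 ± 1.40. In mt-Rnr2 the marrow value of 1899 CPM in glutamine library 10+12 stood far above the other 8, which lay between 169.7 and 504 CPM, and without it the differences of mt-Rnr2 and mt-Rnr1 were -0.45 and -0.23. The 8 nuclear genes of the respiratory chain had a median of 0.06, with the ATP synthase genes Atp5g3 at 2.09 ± 1.30 and Atp5a1 at -1.58 ± 1.17 on opposite sides. Without marrow glutamine library 10+12 Atp5g3 was at 3.68 and passed (edgeR adjusted p = 0.0491), and without marrow HFD 23+28 Atp5a1 was at -0.93. Of glycolysis and the citric acid cycle 4 of 26 genes were measured at this level, 3 positive and 1 negative, with a median of 0.57. The negative one was Mdh2, the malate dehydrogenase of mitochondria, at -2.33 ± 1.40.

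Among 16 ER genes 8 were positive and 8 negative, with a median of -0.06. Hspa5, the main ER chaperone, was at 0.14 ± 0.78 with an interval from -1.48 to 1.77. The 10 cytosolic chaperones had a median of 0.19, with Hsp90ab1 at 0.47 ± 0.58 and the chaperonin subunit Cct8 at 1.99 ± 1.21. Of 25 RNA-binding and splicing genes 9 were positive and 16 negative, with a median of -0.30, led by the splicing factor Sf3b1 at -2.13 ± 1.22. The 8 ubiquitin and proteasome genes had a median of 0.39 and the 7 lysosomal genes one of -0.96, 5 of them negative. Atp6ap1, an accessory subunit of the proton pump, was the lowest of these at -2.40 ± 1.65.

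Of 15 actin and contractile genes 11 were positive and 4 negative, with a median of 0.66. Arpc2, a subunit of the complex that branches actin filaments, was at 2.18 ± 1.19, with a marrow effect of -2.45 ± 0.85 (edgeR adjusted p = 0.0376). Tpm4, a tropomyosin, was at -2.03 ± 1.49, and Actb, cytoplasmic actin, at -0.10 ± 0.62. The sign of Actb turned under 2 of the other scalings and on removal of any of 7 single libraries. The 7 annexin and S100 genes had a median of -0.07, with Anxa2 at -1.98 ± 1.54 and its partner S100a10 at 1.20 ± 1.32. Without marrow HFD 5+11 these were -3.77 and -0.39, Anxa2 was -1.28 without the unnumbered library, and S100a10 was -0.04 under another scaling. Of 14 iron and antioxidant genes 8 were positive, with a median of 0.27, from Sod1 at -1.66 ± 1.13 to the peroxiredoxin Prdx1 at 2.62 ± 1.60. The Prdx1 difference was 0.69 without marrow HFD 14+17 and 4.24 without marrow glutamine library 25+27. Fth1, the ferritin heavy chain, was at 0.38 ± 0.63.

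Signalling genes were few. The 7 TGF-beta, BMP and WNT genes had a median of 0.71 and the 7 immediate early genes one of 0.57, with Fos at 1.10 ± 0.89 and Jun at 0.81 ± 0.81. The 4 genes of the insulin-like growth factor axis lay between -0.83 ± 1.28 for Igfbp7 and 0.68 ± 0.80 for Igfbp4, both binding proteins. Of 8 chemokine and complement genes 5 were positive, led by Cxcl14 and Serping1. The 10 cell division genes had 8 positive differences and a median of 0.77. Cdk1, the kinase that starts mitosis, had 211, 456, 357 and 431 CPM in marrow HFD libraries and 18.9, 1.15, 0.889, 33.6 and 339 CPM with glutamine. Only the glutamine library 25+27 reached the HFD range there, and the difference was 2.30 ± 1.92 (edgeR adjusted p = 0.55). Without that library it was 5.38 (adjusted p = 0.0488).

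**Figure D4:**
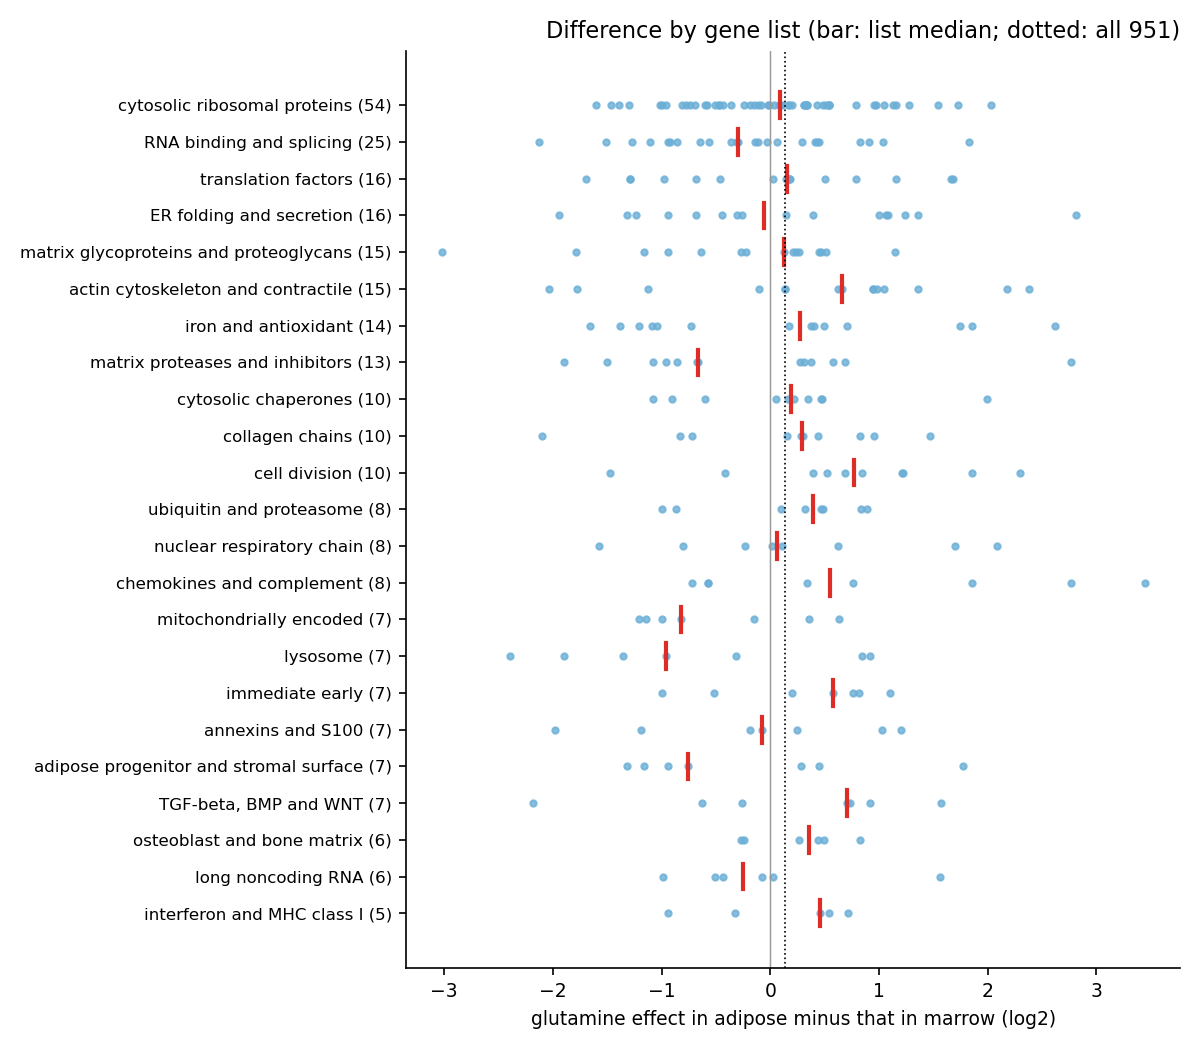
Each point is the difference (adipose effect minus marrow effect, log2) of 1 gene, by gene list with 5 or more genes among the 951, with the number in brackets, a red bar at the list median and a dotted line at the median of all 951 (0.14). List medians ran from -0.96 in the lysosomal genes to 0.77 in the cell division genes, and in every list the genes lay on both sides of zero.

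No blood cell gene among the 951 passed the test of the difference. The alarmins S100a8 and S100a9 of neutrophils were at -0.07 ± 1.19 and -0.19 ± 1.24, with effects of -0.90 and -1.37 in adipose tissue and of -0.82 and -1.19 in marrow. Ngp, a granule protein, was at 1.28 ± 1.11 and Lcn2, which binds bacterial iron carriers, at -0.90 ± 1.72, so that 1 of the 4 neutrophil genes was positive, with a median of -0.13. The beta globins Hbb-bs and Hbb-bt were at 0.13 ± 0.88 and -0.39 ± 0.95, with adipose effects of -1.06 and -1.02 and marrow effects of -1.19 and -0.63. The third erythroid gene, the carbonic anhydrase Car2, was at 1.09 ± 1.01, and the median of the 3 was 0.13. Lyz2, lysozyme of macrophages and neutrophils, was at -0.98 ± 1.15, with 299, 577, 324 and 790.1 CPM in adipose HFD libraries and 381, 294, 106, 163 and 157 CPM with glutamine, ranges that overlapped. Without the unnumbered marrow library its sign turned, to 0.17, and without HFD 23+28 of marrow it was at -1.97. Macrophage genes summed to 1237 to 3031 CPM in adipose HFD libraries and 1004 to 1868 CPM with glutamine, and B and plasma cell genes to 1751 to 6315 and 1188 to 3468 CPM. The part of blood cell RNA in the differences above was not tested.

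Malat1, a nuclear long noncoding RNA, had the narrowest interval of the 951 genes. The adipose values were 13672, 13045, 11052 and 19208 CPM in HFD and 11794, 9226, 10462, 13891 and 16457 CPM with glutamine. Those of marrow were 9657, 9517, 8468 and 6762 CPM in HFD and 9606, 14515, 10866, 14021 and 8871 CPM with glutamine. Arms overlapped in both tissues. Its difference was -0.43 ± 0.37, from -1.20 to 0.34, with an upper bound below 1. Its sign turned under 2 of the other scalings, to 0.14 at most, and without the unnumbered library, to 0.06. Of the 21 panel genes among the 951, 0 passed, and the differences lay between -0.98 for Lyz2 and 1.13 for Slc38a2.

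**Figure D5:**
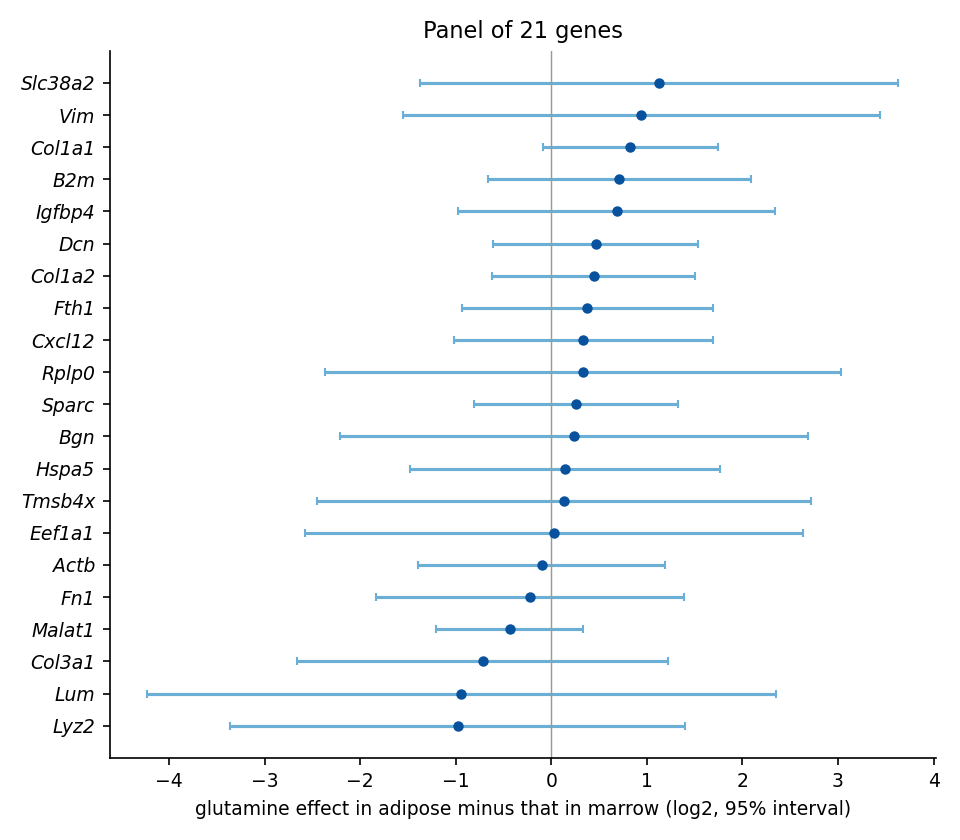
Difference of the glutamine effect (adipose minus marrow, log2) with its 95% interval from the 18-library fit for 21 abundant or familiar genes. Every interval crosses zero, the narrowest is that of Malat1 (-1.20 to 0.34) and that of Col1a1 runs from -0.09 to 1.74.

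The direction of small differences depended on the scaling. Under TMM scaling the 951 genes had a median difference of 0.14 and all genes one of -0.22. Relative log expression scaling gave 0.50 and 0.32, and upper-quartile scaling 0.67 and -0.03. Of the 78 named genes 61 kept their sign in every setting tried, among them Trip12, Ccnd2, Pfdn5, Serping1, Smarcc1 and Rab1a. None of the 951 genes was called when any single adipose library or marrow HFD 23+28 was left out, nor under either of these other scalings. In each of these settings 0 of all genes tested were called too, so the loss was not particular to the 951. TMM factors taken from the 951 genes alone gave the same 3 genes. Without 1 marrow library some genes short of the threshold passed it (edgeR adjusted p): Mtch1 at 6.66 without 18+20 (0.0351), Fam111a at 4.83 without 10+12 (0.0367), Serping1 at 4.02 without 4+6 (0.0397), Smarcc1 at -7.10 without 5+11 (0.0443), Hspa4 at -5.96 without 1+3 (0.0488) and Vim at 3.13 without 25+27 (0.0389). The Nup210 difference was -6.29 without 10+12 (edgeR adjusted p = 0.0489). Smarcc1 also passed without 4+6, 10+12 or 18+20 of marrow, and Fam111a without the unnumbered library. Fabp4 passed without any 1 of the 4 numbered marrow glutamine libraries, at -5.18 to -5.42. Without each marrow library named for these genes 442 to 2681 of all genes were called, so these gains were not particular to the 951. Among the genes described, the signs of Sparc, Hspa5, Eef1a1, Actb, Malat1, Col3a1, S100a10 and Lyz2 turned on removal of at least 1 library.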

How the data were processed

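QuantSeq 3′ libraries were sequenced, and read 1 was used, per the labels' protocols. The submitters' processing notes name FastQC 0.12.1, STAR 2.7.10b, HTSeq 0.11.3 and build GRCm38. No source used here states the annotation or the strand setting. The authors deposited 1 table of raw counts per gene and tissue, and these counts were used as deposited. Totals were 13970788 to 59529238 counts per library. Precision is that of 4 and 5 libraries per group.

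The tables were joined by gene name. Names were matched to GENCODE M21: 40115 directly, 4029 after restoring altered spellings, and 2839 stayed unmatched. Of the 951 genes 23 had no coordinates. One 4-group model was fitted to all 18 libraries in edgeR 4.0.16 (R 4.3.3; filterByExpr, TMM factors, glmQLFit, glmQLFTest, Benjamini-Hochberg over 15203 genes, threshold 0.05). The contrast was the adipose effect minus the marrow effect, SE being the fold change over the root of F. A simulated table of counts with known changes was used to test the code. Alternatives included other scalings and filters, limma 3.58.1, DESeq2 1.42.0, single-tissue fits, a replicate block and leaving out each library. Joint removal of 2 libraries and TMM-scaled overlap were chosen after seeing the data.

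The 951 genes, the gene lists and the tests were chosen with earlier results of these data known. Genes were named by rule: the 8 with the smallest p of the difference in each direction, the 4 largest differences of each sign among genes at 100 counts in all 18 libraries, the 2 with the smallest p in each list holding 5 or more of the 951, the genes of a fixed panel of 25, and every called gene up to 12. Predicted gene models were not named by it. Other genes in the text were picked from the lists after their values were seen. Some genes are not reported here.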

Additional observations from a re-analysis of the deposited data

Results flagged for a closer look

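For Trip12 (-5.77, log2), Ccnd2 (-4.51) and Pfdn5 (4.49) the effect of glutamine differed between the tissues in edgeR's test (adjusted p = 0.0438, 0.0477 and 0.0440). Lone libraries were looked for in 96 group values, namely 22 leading genes and the 2 library measures in each of the 4 groups, with a test of the gap to the next library. The test marked 16. Its nominal rate of about 5 in 100 applies to values not chosen beforehand. The leading genes were chosen by their differences in these same libraries, so the 16 cannot be set against that rate.

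In marrow with glutamine the unnumbered library lay far above its group for Trip12 (1653 CPM, the others 1.79 to 283), Smarcc1 (798 CPM, the others 169 to 317), Fabp4 (559 CPM, the others 4.68 to 17.9) and Rab1a (396 CPM, the others 184 to 242), and library 18+20 did so for Mtch1 (188 CPM, the others 1.42 to 25.2). In marrow HFD library 1+3 was far above its group for Trip12 (48.0 CPM) and Hspa4 (205 CPM), 5+11 for Ccnd2 (34.2 CPM) and Smarcc1 (45.6 CPM), and 23+28 for Mtch1 (1771 CPM).

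In adipose HFD the high libraries were 1+3 for Rab1a (258 CPM, the others 153 to 167) and 23+28 for Hspa4 (272 CPM, the others 169 to 175) and Hnrnpl (215 CPM, the others 90.4 to 109). In adipose tissue with glutamine they were 13+15 for Mtch1 (511 CPM, the others 316 to 355) and 10+12 for the number of genes at 100 counts (14469, the others 12385 to 12989), and library 25+27 was low for Hspa4 (122 CPM, the others 183 to 202). The part of these libraries in the differences was not tested beyond leaving each out.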

How the results depend on the processing

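The number of the 951 genes called for the difference was 3 in the fit reported. It was 0 with relative log expression factors, upper-quartile factors, a fit on the 951 genes alone and no count filter. Limma-voom with sample weights or with 1 weight per tissue also gave 0. DESeq2 gave 12, and each tissue fitted alone gave 1 (Col1a1), by a normal approximation rather than edgeR's test. The number was 3 with TMM factors from the 951 genes alone or within each tissue and with a robust fit. A stricter choice of genes gave 0 at 100 counts in all 18 libraries and 1 at 500 counts in 7 of 9. Leaving out 1 library gave 0 to 8, with 0 for each adipose library and for marrow HFD 23+28. It gave 1 for HFD 14+17, 2 for HFD 1+3 and 3 for HFD 5+11, where 399 to 466 of all genes were called. It gave 5 for the unnumbered library, 5 for glutamine 25+27, 6 for 18+20 and 8 for 4+6 and for 10+12. In these glutamine settings 2094 to 2681 of all genes were called, so nothing particular to the 951 is read from the counts. Without HFD 23+28 and the unnumbered library 5 of the 951 were called, against 1477 of all 16253 genes tested there. Of the 5, 1, Pfdn5, was among the 3. The 31 calls in marrow became 0 in the fit on the 951 genes alone, 18 with no filter, 52 with DESeq2, 2 and 1 with the limma-voom fits, 0 with marrow fitted alone, 10 and 19 under the stricter choices and 23 to 48 without 1 library. In adipose tissue the count was 0 in each of these settings. Over all genes the calls for the difference ran from 0 to 2681.

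The number pairs were not taken to link samples. Deviations from the group means correlated between the tissues at -0.014 to 0.053 over 8 pairs, and 1 of 8 libraries correlated best with its own number. The spread between marrow libraries was wide, so such correlations cannot show that libraries with the same number pair were unlinked. With the number pair as a replicate block 0 of the 951 genes and 0 of all genes were called. An exact permutation test compared the adipose minus marrow TMM-scaled log2 CPM over 4 against 4 pairs (70 splits, two-sided, smallest possible p 0.0286). It gave 7 of the 78 named genes an unadjusted p under 0.05 and none after Benjamini-Hochberg adjustment (smallest 0.318). Many of the 78 were named for small p-values of the difference in these same libraries, so the 7 cannot be set against a nominal rate. With so high a smallest possible p, few genes alone cannot pass the adjustment, so its outcome decides nothing. In this permutation test the unadjusted p was 0.0286 for Pfdn5, 0.0857 for Ccnd2 and 0.171 for Trip12. Without TMM factors it was 0.0286, 0.0857 and 0.114. Of the 78, 5 changed sign under another scaling and 17 without 1 library. Trip12, Ccnd2 and Pfdn5 kept the sign of their differences in every setting. The marrow libraries with few genes at 100 counts limit what the difference can show.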
